A study of Rattus norvegicus with 18 samples.

Results

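The glycolysis enzymes examined here are 10 genes of the pathway that turns glucose into pyruvate and lactate: Hk1, Gpi, Pfkl, Aldoa, Tpi1, Gapdh, Pgk1, Eno1, Pkm and Ldha. They were picked out by gene symbol, with no threshold on a measured value, and are 10 of the 17337 genes in the files. Each enzyme was followed over 18 RNA libraries of rat oligodendrocyte progenitor cells (OPCs), the dividing glial cells that give rise to the myelin-forming oligodendrocytes. Cells were enriched with magnetic beads (MACS) from aged or from neonate rats and fell into 6 groups of 3 libraries: aged primary, neonate primary, aged on soft gel, aged on stiff gel, neonate on soft gel and neonate on stiff gel. The gels were hydrogels coated with laminin, a matrix protein, and the cultured cells were kept in the growth factors FGF and PDGF. The labels name no strain, sex, age in months, gel stiffness value or time in culture, and for the primary libraries a title letter alone tells aged from neonate. Whether the 3 libraries of a group stem from different animals is not stated, so every p-value measures only how far these libraries differ, and that may be technical.

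In glycolysis a preparatory phase spends ATP to phosphorylate glucose and split it, and a payoff phase returns ATP and NADH and ends in pyruvate. Lactate dehydrogenase then reduces pyruvate to lactate, which restores NAD+ and lets the pathway run without mitochondria. Cells of the oligodendrocyte lineage use glycolysis for growth and, once mature, are known to hand lactate to axons. Most steps are served by several isozymes encoded by separate genes, and the 10 genes here are a widely expressed form of their step.

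Levels are given as scaled TPM: the TPM of a gene, its share of all transcripts after correction for length, over a factor that evens out the libraries. Depth was low: 33939 to 141883 read pairs per library fell on annotated exons if each pair covers 300 bases, of which 22631 to 107899 lay outside ribosomal RNA. All 10 enzymes together rested on 78.0 to 645 read pair equivalents per library. Among all values of genes tested 41.4% were 0, so a 0 may be a gene that was expressed but not sampled. In 3 aged libraries, replicate 1 of the primary, soft gel and stiff gel groups, RNA was spread over more genes than elsewhere. These 3 broad libraries had 12371 to 14999 genes above 0 against 5842 to 10849 in the others. Of the olfactory receptor genes 54.7% to 77.2% had coverage, against 0.251% to 39.2% in the other libraries. Next came aged soft gel replicates 2 and 3, at 39.2% and 30.8%, against at most 18.9% in any neonate library. Fits without the 3 broad libraries still hold them. Some results are also given without the 3 broad libraries. The aged primary libraries, labelled as OPCs, carried microglial transcripts: 12 of 12 microglial markers were called higher and 5 of 9 OPC markers were called lower than in neonate primary libraries (limma, adjusted p under 0.05). Pdgfra, the PDGF receptor that defines OPCs, stood at 15.9, 0 and 0 scaled TPM in aged primary libraries and at 53.7, 42.6 and 74.7 in neonate ones. In bulk libraries such as these, fewer cells of a type and less RNA per cell cannot be told apart.

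Summed over the 10 enzymes, scaled transcript levels were higher on gels than in primary cells at both ages, but the size of the difference and, without scaling, the separation of the libraries depended on how libraries were scaled. The sum was 438, 489.6 and 728 scaled TPM in the aged primary libraries and 496, 492 and 761 in the neonate primary ones. On soft gel it was 969, 1478 and 1690 in aged cells and 2371, 1952 and 1226 in neonate cells. On stiff gel it was 1036, 1099 and 1694 in aged cells and 1731, 2051 and 1031 in neonate cells. On this scale every gel library lay above every primary library, and the mean over 6 gel libraries was 2.41 times the primary mean in aged and 2.96 times in neonate cells. As a share of the TPM outside ribosomal RNA, the sum took 0.116% to 0.187% in aged primary libraries against 0.271% to 0.655% on gels, and 0.196% to 0.289% against 0.378% to 0.917% in neonate cells. In unscaled TPM the groups overlapped. The neonate sums were then 961, 856 and 1239 in primary libraries and 806 to 2962 on gels, 3 of 6 gel libraries lay above all primary ones, and the ratio of means was 1.46. The aged sums were 709, 462 and 798 against 719 to 2446, with 5 of 6 gel libraries above all primary ones and a ratio of 2.39. In scaled TPM, aged and neonate libraries overlapped within primary cells, within soft gel and within stiff gel. In each group Eno1 made the largest part of the mean sum, and its share in a library ran from 23.3% in aged primary replicate 1 to 63.6% in aged stiff gel replicate 3.

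**Figure D1:**
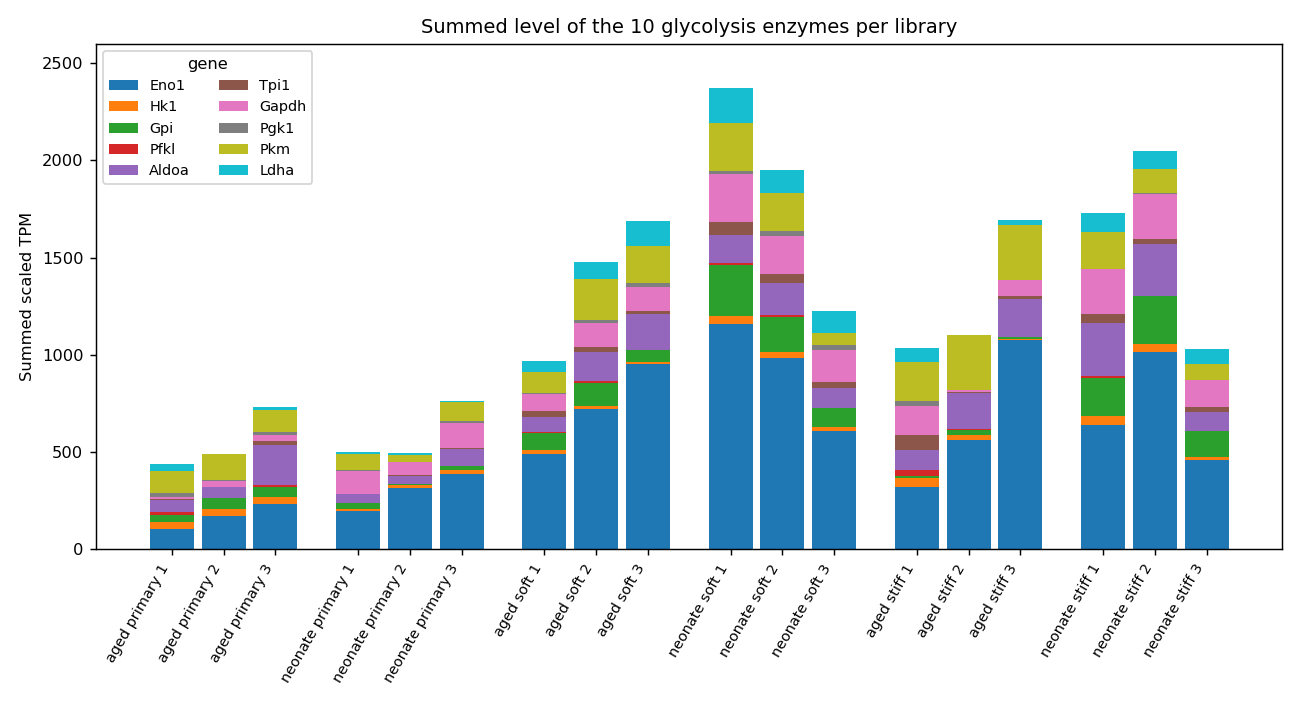
Bars give the summed scaled TPM of the 10 enzymes in each of the 18 libraries, stacked by gene with Eno1 at the base and grouped by age and condition. The 6 primary libraries reach 438 to 761 and the 12 gel libraries 969 to 2371, a separation that unscaled TPM did not keep, and Eno1, Pkm, Aldoa, Gapdh and Gpi make up most of each gel bar.

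In every group Eno1 had the highest mean level of the 10. Its libraries lay above all libraries of the next enzyme in 5 of the 6 groups and overlapped with Pkm and Aldoa in aged primary cells. The next rank was held by Pkm in the 3 aged groups, by Gapdh in neonate primary and neonate soft gel cells and by Aldoa in neonate stiff gel cells, and most neighbours in the order overlapped. Pkm stood clear of Aldoa in aged cells on stiff gel, at 199 to 283 against 100.1 to 194 scaled TPM. On gels the last ranks went to Tpi1, Hk1, Pgk1 and Pfkl, joined by Gpi in aged cells on stiff gel. Pfkl and Pgk1 were each listed at 0 in 5 of 18 libraries, Tpi1 in 2 and Ldha in 1, while the other 6 enzymes had reads in all 18. For Gapdh, the enzyme with the shortest transcript, a single read pair was worth 3.50 to 16.4 scaled TPM, and for Hk1, the one with the longest, 1.37 to 6.41. Processed copies of Gapdh and of several other enzyme genes are known in rodent genomes, and how reads shared with them were assigned is not given in the sources used here.

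The preparatory phase opens with hexokinase 1 (Hk1, chr20:31911460-31979780, minus strand), which phosphorylates glucose. Its level was 36.9, 39.1 and 33.9 scaled TPM in aged primary libraries and 14.2, 14.8 and 20.8 in neonate primary ones. Aged primary libraries were thus all above neonate ones, but the limma difference of 1.11 on the log2 scale (SE 0.77) did not pass, with an adjusted p of 0.647. On gels Hk1 ran from 3.57 (aged stiff gel replicate 3) to 50.0 (aged stiff gel replicate 1), with overlap between all 4 gel groups.

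Glucose-6-phosphate isomerase (Gpi, chr1:90063411-90091287, minus strand, 1 annotated transcript), which converts glucose 6-phosphate into fructose 6-phosphate, had the widest spread between groups of the enzymes present in all libraries. Primary cells gave Gpi levels of 35.6, 53.7 and 49.6 scaled TPM when aged and of 27.8, 5.23 and 18.1 when neonate. On soft gel it stood at 83.2, 118 and 59.4 (aged) and at 261, 184 and 99.5 (neonate). On stiff gel it stood at 9.25, 23.2 and 12.7 (aged) and at 196, 248 and 132 (neonate). Aged cells on stiff gel were therefore below all neonate gel libraries and below all aged soft gel libraries, and neonate gel libraries were above all neonate primary ones. Behind the lowest of these values lay 0.973 read pair equivalents in neonate primary replicate 2 and 1.23 in aged stiff gel replicate 1. The highest, in neonate soft gel replicate 1, rested on 79.2.

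Phosphofructokinase of the liver type (Pfkl, chr20:11393887-11415880, plus strand) catalyses the committed step. It was the lowest enzyme over the 18 libraries, with a median of 4.33 scaled TPM, a highest value of 30.7 and at most 5.55 read pair equivalents in a library. Its 6 groups all overlapped, and at this depth no difference was detectable. Aldolase A (Aldoa, chr1:198228387-198232344 for the transcript with 97.5% of its TPM, minus strand), which splits fructose 1,6-bisphosphate, was found in all libraries. Aldoa measured 61.1, 58.0 and 207 scaled TPM in aged primary libraries and 46.0, 38.2 and 84.5 in neonate primary ones. On soft gel Aldoa was at 81.5, 147 and 183 (aged) and at 145, 168 and 100.2 (neonate). On stiff gel it was at 100.1, 183 and 194 (aged) and at 273, 264 and 97.8 (neonate). Neonate gel libraries were all above neonate primary ones, whereas aged gel and aged primary libraries overlapped.

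Triosephosphate isomerase (Tpi1), which interconverts the products of aldolase, is annotated at 2 places in rn6, chr4:157328375-157331905 on the minus strand and chr9:20213752-20217282 on the plus strand. The chr9 copy took 83.0% of its TPM. At both places the gene Spsb2 overlaps on the opposite strand, and whether reads were assigned by strand is not given in the sources used here, so Tpi1 levels are uncertain. Tpi1 summed to 0 to 21.4 scaled TPM in the 6 primary libraries and to 5.97 to 78.6 in the 12 gel libraries. In neonate cells the groups were apart, with 0, 7.32 and 7.95 in primary libraries and 25.5 to 64.8 on gels.

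In the payoff phase glyceraldehyde-3-phosphate dehydrogenase (Gapdh, chr4:157676396-157680268, minus strand), which makes the first NADH and is widely used as a reference gene, was not level across groups. In primary cells Gapdh stood at 12.1, 34.0 and 30.0 scaled TPM (aged) and at 117, 65.8 and 126 (neonate). On soft gel it stood at 88.7, 125.4 and 125.1 (aged) and at 248, 196 and 165 (neonate). On stiff gel it stood at 148, 12.2 and 79.1 (aged) and at 233, 231 and 139.9 (neonate). The aged groups lay wholly below the neonate groups in primary cells and on soft gel, and overlapped with them on stiff gel through aged replicate 1, a broad library. Phosphoglycerate kinase 1 (Pgk1, chrX:77263399-77279373, plus strand), which makes the first ATP of this phase, was low, with a median of 9.98 and a highest value of 26.9. In neonate cells Pgk1 was at 18.7, 24.4 and 21.0 on soft gel and at 0, 6.15 and 0 on stiff gel, without overlap, on 2.60 to 4.65 and on 0 to 0.661 read pair equivalents.

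Enolase 1 (Eno1, chr5:167288717-167299610 for the transcript with 91.8% of its TPM, plus strand), which makes phosphoenolpyruvate, was the best measured enzyme, with 18.2 to 369 read pair equivalents per library. Eno1 was at 102, 167 and 232 scaled TPM in aged primary libraries and at 192, 312 and 386 in neonate primary ones. On soft gel it reached 487, 718 and 951 (aged) and 1159, 981 and 608 (neonate). On stiff gel it reached 317, 561 and 1077 (aged) and 639.7, 1013 and 456 (neonate). All gel libraries of an age were above all primary libraries of that age, and aged and neonate libraries overlapped in each condition. Pyruvate kinase M (Pkm, chr8:64481174-64502722, plus strand), which forms pyruvate and ATP, was at 109.5, 133 and 116 in aged primary libraries and at 82.8, 37.9 and 95.7 in neonate ones. On stiff gel Pkm was at 199, 279 and 283 (aged) and at 190.1, 123 and 83.9 (neonate), again with aged above neonate, while on soft gel the ages overlapped at 62.1 to 242. The files give Pkm as 1 transcript, so the splice forms M1 and M2 were not separated.

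Lactate dehydrogenase A (Ldha, chr1:102900288-102909707, plus strand), which reduces pyruvate to lactate, had the largest ratio between group means of the 10, at 23.5. Ldha was at 5.80, 6.61 and 5.31 scaled TPM in neonate primary libraries, on 0.977 to 1.61 read pair equivalents each. In aged primary libraries it was at 39.6, 1.29 and 11.95. On soft gel it reached 56.1, 86.2 and 131 (aged) and 181, 118 and 117 (neonate). On stiff gel it reached 76.0, 0 and 28.5 (aged) and 100.4, 95.5 and 76.9 (neonate). The neonate gel libraries were all above the neonate primary ones, and aged libraries on stiff gel, all below the neonate ones there, ranged from 0 to a value close to the lowest of them.

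**Figure D2:**
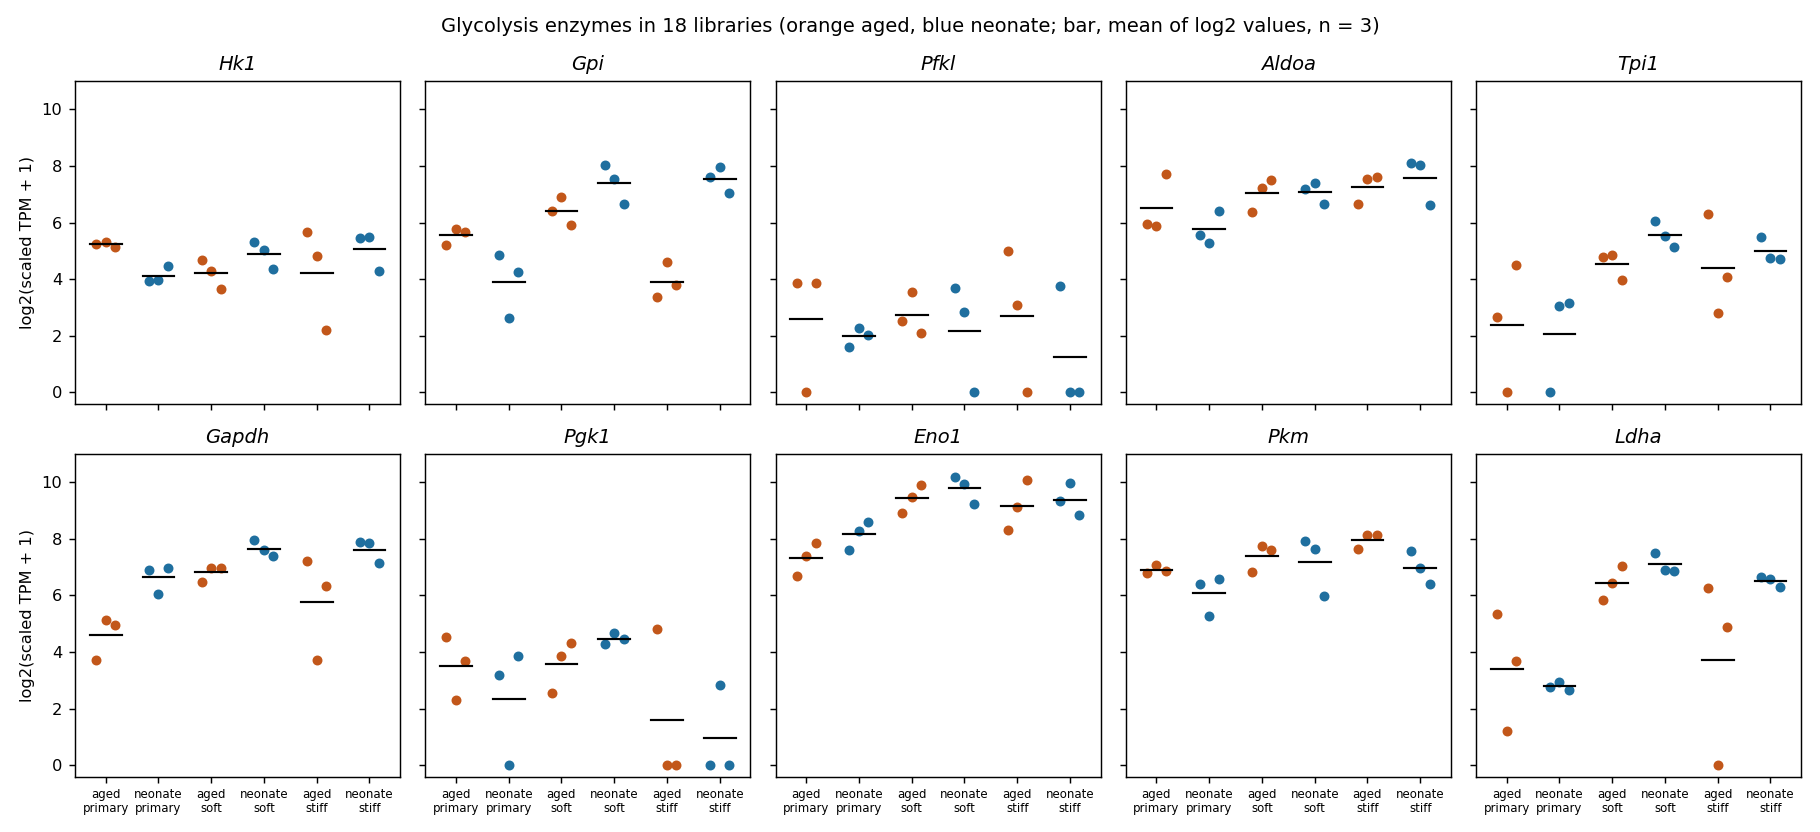
Each panel plots 1 enzyme as log2(scaled TPM + 1) in every library, with aged libraries in orange, neonate libraries in blue and a bar at the mean of 3 log2 values. Gpi is low in aged stiff gel and in neonate primary libraries, Eno1 is higher in all gel groups than in the primary group of the same age, and Pfkl, Tpi1, Pgk1 and Ldha reach 0 in some libraries.

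The comparison of cultured with freshly sorted neonate cells asks which enzymes differ once the cells have left the animal. Gpi rose, and Aldoa, Tpi1, Gapdh, Eno1 and Ldha were higher in all 6 gel libraries than in any of the 3 primary ones without passing the test. The values above put 6 of 10 enzymes without overlap, all higher on gels, against 3.63% of all 15144 genes tested, in either direction. Without scaling this count dropped to 2, Gpi and Ldha, against 10.6% of all genes, and when rescaled without ribosomal RNA it was 5, with Gapdh lost, against 4.39%. All 10 enzymes passed the filter on low values. The Gpi difference was 3.56 on the log2 scale (95% interval 2.43 to 4.69), with an adjusted p of 0.00198 by limma. Gpi was the only enzyme called, 1 of 10 against 0.099% of all genes. The Ldha difference was larger but noisier, 4.02 (SE 0.92) with an adjusted p of 0.0983, and the voom alternative called it with an adjusted p of 0.00458; over all alternatives its adjusted p ran from 0.000616 to 0.515. The Tpi1 difference was 3.21, that of Aldoa 1.58 and that of Eno1 1.43, with adjusted p of 0.302, 0.485 and 0.363 by limma.

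Of the 10 neonate differences 9 lay above 0, with a median of 1.21, while the median over all genes was 0 and 43.5% of genes lay above 0. Pfkl alone lay below, at -0.26, and above with quantile normalization. Without any scaling the median of all genes moved by -0.47, and Hk1, Gapdh, Pgk1 and Pkm then lay below 0. Relative to the median of all genes these 4 stayed above it under each scaling tried, by at least 0.25, 0.32, 0.11 and 0.33. The Gpi call was lost without neonate primary replicate 2, with a difference of 2.92 and an adjusted p of 0.0619, and it was also lost without scaling (0.105), with quantile normalization (0.064) and with the 3 groups fitted alone (0.0778); over all alternatives its adjusted p ran from 6.65e-05 to 0.105. With the 3 groups fitted alone Ldha was called instead. Markers of other cells moved between the same groups. The 12 microglial markers summed to 87.8 to 212.5 scaled TPM in neonate primary libraries and to 0 to 36.3 on gels, and the red blood cell genes to 68.4 to 118 against 0 to 22.6. The 9 OPC markers summed to 814 to 1041 against 859 to 1670, the 10 mature oligodendrocyte markers to 201 to 328 against 136 to 838, and the 8 neuron markers to 135 to 326 against 73.7 to 152. The mature oligodendrocyte sum in primary libraries was mostly Mog, at 316, 168 and 229 there and at 84.2 to 199 on gels. In that list 7 of 10 markers lay above 0 and 1 below, with a median of 2.04, and 5 were at 0 in all neonate primary libraries. Of the mature oligodendrocyte markers 5 of 10 had an unadjusted p under 0.05, and limma called 0. Voom called 4 of that list (Mbp, Mag, Cnp, Cldn11), 3 neuron markers (Dcx, Stmn2, Tubb3) and the astrocyte marker Gfap, whose limma difference was 4.36 with an adjusted p of 0.0778. The astrocyte list was mixed, with 4 of 7 markers above 0, 3 below and a median of 0.02. Of the 12 microglial markers limma called 1 lower, and 2 lay above 0. C1qa, Cx3cr1, Aif1 and Tyrobp were at 0 in all neonate gel libraries. Except for Cx3cr1, they were also at 0 in 2 of 3 neonate primary libraries. The part of these cells in the enzyme differences was not tested.

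In aged cells Eno1 rose on gels. The Eno1 difference was 1.99 on the log2 scale (95% interval 1.13 to 2.86), with an adjusted p of 0.0135 by limma, and all 6 gel libraries were above all 3 primary ones. Eno1 was 1 of 10 enzymes called, against 1.11% of all genes, and 1 of 10 without overlap, against 3.74%. Gapdh, at 1.69, and Tpi1, at 2.09, had the next most certain differences, with adjusted p of 0.219 and 0.402. The median of the 10 was 0.70, beside 0.05 over all genes, and 7 of 10 lay above 0, beside 52% of all genes. Hk1 (-1.01), Pgk1 (-0.92) and Gpi (-0.39) were the enzymes below 0. The Eno1 call was lost without aged primary replicate 1 (1.67, adjusted p 0.0974 by limma) and without aged primary replicate 2 (2.01, 0.0883), without scaling (0.0757) and with the 3 groups fitted alone (0.0874). Over all alternatives its adjusted p ran from 0.00172 to 0.0974, and without the 3 broad libraries it held, at 2.02 with 0.0225. In the same libraries the microglial markers summed to 2284 to 3872 scaled TPM in primary cells and to 231.5 to 893 on gels, with 4 of 12 called lower, and the OPC markers to 67.3 to 195 against 61.2 to 467. The part of microglial RNA in the Eno1 difference was not tested.

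The culture difference of Gpi was not the same at both ages. The interaction of age and culture, the culture difference in aged minus that in neonate cells, was -3.95 for Gpi (SE 0.78) with an adjusted p of 0.0353 by limma. Over the marker lists, the median of the same term was -3.55 for mature oligodendrocyte markers, with 7 of 10 at an unadjusted p under 0.05, and -2.74 for microglial markers, with 6 of 12. Limma called 0 of either and voom 1 of each, Mog and Tmem119. Mog went against its list: it was the only 1 of the 10 above 0, at 4.22 by limma. Other lists had a median above 0: 1.24 for OPC markers (8 of 9 above 0), 1.335 for endothelial (5 of 8) and 0.72 for neuron markers (7 of 8). It was -1.44 for astrocyte and -0.21 for red blood cell markers. Limma called 0 of these lists, and voom called the neuron marker Stmn2. The part of these cells in the Gpi interaction was not tested. The Gpi term joined a rise of 3.56 in neonate cells with a difference of -0.39 in aged cells. Gpi was 1 of 10 enzymes called here, against 0.112% of all genes, and the other 9 did not pass, with Ldha at -2.35 (95% interval -5.02 to 0.31) and Hk1 at -1.89 (SE 0.94). The sign for Gpi was negative under all 29 alternatives, from -4.41 to -2.97, but the call was not stable: it was lost in 11 of 18 fits that left out 1 library and in 5 of 11 other alternatives, with adjusted p of 0.0132 to 0.325 over all of them. The libraries whose removal ended it were aged primary replicates 2 and 3, neonate primary replicates 2 and 3, aged soft gel replicates 2 and 3, neonate soft gel replicates 1 and 2 and the 3 neonate stiff gel libraries, with adjusted p of 0.0561 to 0.21.

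**Figure D3:**
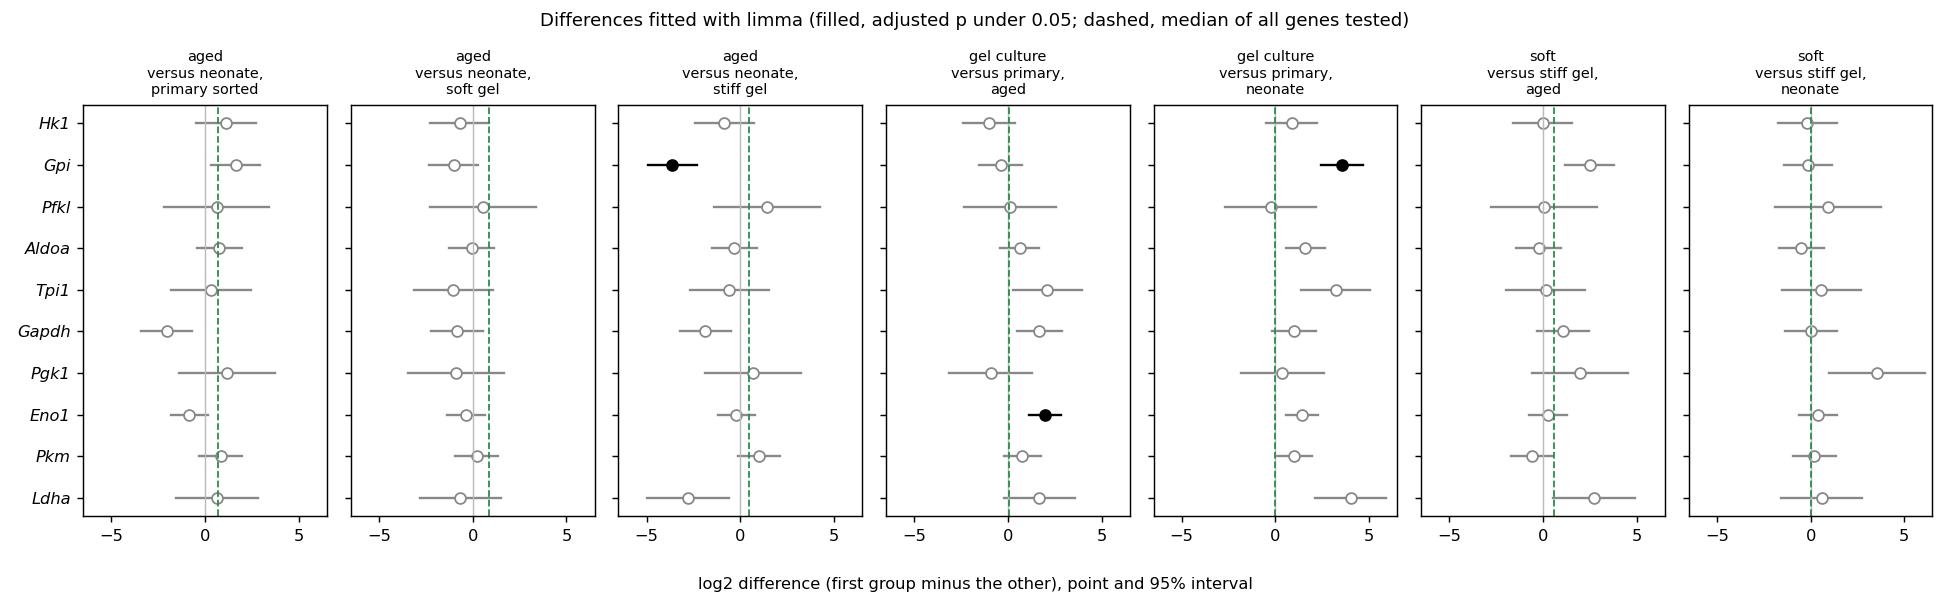
Each panel gives the log2 difference of the 10 enzymes in 1 comparison, first group minus the other, as a point with its 95% interval; filled black points passed an adjusted p of 0.05 by limma and the dashed line is the median of all genes tested. Gpi is filled in aged versus neonate cells on stiff gel (-3.64) and in neonate gel culture (3.56), and Eno1 in aged gel culture (1.99).

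Gpi and Eno1 were called in culture and Ldha had the largest culture difference in neonate cells, so the sequences upstream of these genes are shown. Each is the 250 bases before an annotated start in RefSeq, build GRCr8, on the strand of the gene. Such windows can be read for the core of the hypoxia response element, bound by the transcription factor HIF-1, which is known to act on glycolysis genes. Capitals mark ACGTG or GCGTG on either strand; CACGTG, the E-box bound by MYC, holds ACGTG on both strands and counts as 1 site. The windows lie at chr1:95993262-95993511 (Gpi, minus strand), chr5:166003111-166003360 (Eno1, plus strand, the second of its 2 starts) and chr1:106507842-106508091 (Ldha, plus strand).
Gpi: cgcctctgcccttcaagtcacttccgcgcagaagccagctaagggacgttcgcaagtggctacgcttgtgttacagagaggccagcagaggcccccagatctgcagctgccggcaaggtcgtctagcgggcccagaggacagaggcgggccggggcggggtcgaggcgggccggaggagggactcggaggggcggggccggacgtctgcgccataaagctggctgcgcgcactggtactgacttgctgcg
Eno1: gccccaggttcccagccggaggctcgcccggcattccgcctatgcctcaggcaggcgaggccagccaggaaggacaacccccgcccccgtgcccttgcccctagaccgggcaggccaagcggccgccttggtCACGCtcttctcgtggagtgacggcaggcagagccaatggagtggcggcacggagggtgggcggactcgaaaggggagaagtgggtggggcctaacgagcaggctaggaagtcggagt
Ldha: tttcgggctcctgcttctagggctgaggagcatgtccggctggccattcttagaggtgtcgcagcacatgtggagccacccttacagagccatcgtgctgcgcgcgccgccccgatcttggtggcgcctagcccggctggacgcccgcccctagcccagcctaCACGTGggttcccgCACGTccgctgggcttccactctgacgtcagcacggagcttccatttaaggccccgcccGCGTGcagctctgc
The Gpi window held 0 such sites, the Eno1 window 1, at 118 bases before the start, and the Ldha window 3, at 87, 73 and 14 bases before the start, the first of them a CACGTG. Among all 33469 promoter windows given, 36.7% held at least 1 site (16.6% ACGTG, 25.9% GCGTG), and 4.3% held 3 or more. The table gave 13 windows for 9 of the enzymes, of which 7 windows held a site; Gapdh had 3, Pfkl 2, and the windows of Gpi, Tpi1 and Pkm 0. A match describes these letters only, and binding was not measured.

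In primary cells no enzyme was called between the ages. By limma 0 of 10 passed, against 2.6% of all genes, 2 of 10 had an unadjusted p under 0.05 (Gpi and Gapdh), and voom called 1, Gapdh. Groups did not overlap for 4 of 10, against 16.1% of all genes: Hk1, Gpi and Pkm were higher and Gapdh was lower in aged cells. Without scaling, and also when rescaled without ribosomal RNA, the 3 without overlap were Hk1, higher, and Gapdh and Eno1, lower. The median difference was 0.69, the same as over all genes. Pfkl, Tpi1 and Ldha, at 0.61, 0.31 and 0.63, lay below 0 when rescaled without ribosomal RNA. Gapdh was -2.05 (SE 0.67) with an adjusted p of 0.114 by limma, which is 2.74 below the median of all genes on the log2 scale. Its sign was negative under all alternatives, and its adjusted p ran from 0.0165 to 0.354. It passed without scaling (0.0374), when rescaled without ribosomal RNA (0.0392), with quantile normalization (0.0435), with voom (0.0165), with array weights (0.0297) and without aged stiff gel replicate 2 (0.0232). Gpi was 1.63 (SE 0.63) with an adjusted p of 0.226, and Eno1 was -0.85 (SE 0.49) with one of 0.525. Beside these values, the microglial markers summed to 2284 to 3872 scaled TPM in aged and 87.8 to 212.5 in neonate primary libraries, and the OPC markers to 67.3 to 195 and 814 to 1041. Of 10 mature oligodendrocyte markers 9 were higher and 1 lower in aged cells, all 10 with an unadjusted p under 0.05. Limma called 1 of them in each direction, and 2 of 8 neuron markers lower. Red blood cell genes summed to 366 to 2479 in aged and 68.4 to 118 in neonate primary libraries. The part of these cells in the enzyme values was not tested.

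On soft gel aged and neonate cells gave no called enzyme either. By limma 0 of 10 passed, against 1.56% of all genes, 0 of 10 had an unadjusted p under 0.05, and voom called 0. Tpi1 and Gapdh were lower in all 3 aged libraries than in any neonate one, 2 of 10 against 19.7% of all genes; without scaling 0 of 10 were apart. The largest differences were -1.03 for Tpi1 (95% interval -3.15 to 1.09) and -1.004 for Gpi (-2.31 to 0.30). In all, 8 of 10 lay below 0 with a median of -0.67, whereas the median over all genes was 0.86. Pfkl and Pkm were the ones above 0, at 0.55 and 0.20, and neither exceeded the median of all genes. With other scalings Pfkl (quantile) moved below 0 and Aldoa (no scaling) above it. The distance of the enzyme median from that of all genes was -1.53, and -0.80 without the 3 broad libraries. The microglial markers summed to 503 to 893 in these aged and to 10.4 to 36.3 in these neonate libraries, with 4 of 12 called higher by limma. The OPC markers summed to 301 to 444 and 1360 to 1619, with 2 of 9 called lower. The part of these cells in the soft gel values was not tested.

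On stiff gel Gpi fell with age. The difference between aged and neonate cells was -3.64 on the log2 scale (95% interval -4.94 to -2.33), with an adjusted p of 0.000963 by limma, and all 3 aged libraries were below all 3 neonate ones. It was the only enzyme called, 1 of 10 against 2.18% of all genes. Groups did not overlap for 3 of 10, against 10.4% of all genes: Gpi and Ldha were lower and Pkm was higher in aged cells. Without scaling Gpi alone was apart, and when rescaled without ribosomal RNA it was Gpi, Gapdh and Ldha, all lower. Ldha was at -2.80 (SE 1.06, adjusted p 0.224), Gapdh at -1.87 (SE 0.67, adjusted p 0.181) and Pkm at 0.99 (SE 0.55, adjusted p 0.454) by limma. Without aged stiff gel replicate 1, and likewise without the 3 broad libraries, Gapdh and Ldha were called lower too; without the 3 they stood at -2.59 and -4.08 with adjusted p of 0.0263 and 0.0328. With the 6 libraries of this comparison fitted alone Gpi kept its difference and its adjusted p became 0.075, the highest over all alternatives, of which the lowest was 0.000588. Over the alternatives the adjusted p of Gapdh ran from 0.0263 to 0.578 and that of Ldha from 0.0328 to 0.634. The microglial markers summed to 231.5 to 554 in these aged and to 0 to 20.8 in these neonate libraries, and the OPC markers to 61.2 to 467 and 859 to 1670. Mature oligodendrocyte markers summed to 88.5 to 416 and 396 to 838, with 5 of 10 at an unadjusted p under 0.05, and neuron markers to 2.35 to 70.8 and 104 to 152, with 4 of 8. Limma called the astrocyte marker Gfap lower (-4.27, adjusted p 0.0306), and of the 7 astrocyte markers 6 lay below 0 and 1 above. The part of these cells in the Gpi difference was not tested.

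Soft and stiff gel were compared within each age, which is the contrast of stiffness itself. In aged cells 0 of 10 enzymes passed by limma, against 0.0792% of all genes, 2 had an unadjusted p under 0.05 (Gpi and Ldha), and voom called 0. Gpi was higher in all 3 soft gel libraries, 59.4 to 118, than in any stiff gel library, 9.25 to 23.2. This was the only enzyme of 10 without overlap, against 8.32% of all genes, with a difference of 2.49 on the log2 scale (95% interval 1.19 to 3.80) and an adjusted p of 0.143 by limma. Ldha was at 2.72 (SE 1.06, adjusted p 0.341), with groups that overlapped. The overlap came from aged stiff gel replicate 1, a broad library, at 76.0 against 56.1 to 131 on soft gel. Over the alternatives, fitted by limma or voom, the Ldha difference ran from 0.87 to 4.32 and its adjusted p from 0.0675 to 0.824. The median of the 10 was 0.20, below the 0.59 over all genes. In neonate cells 0 of 10 passed, as did 0% of all genes, 1 had an unadjusted p under 0.05 (Pgk1), and voom called 0. Pgk1, at 3.53 (SE 1.25), and Ldha, at 0.58 (SE 1.06), were higher in all soft gel libraries, 2 of 10 against 6.33% of all genes, and without scaling Pgk1 alone was. Each had an adjusted p of 1. For Gpi the neonate difference was -0.14 (95% interval -1.44 to 1.16), and its sign turned without scaling and when rescaled without ribosomal RNA.

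The interaction of age and stiffness tested whether these differences were unequal. For Gpi it was 2.63 (SE 0.90) with an adjusted p of 0.762 by limma, so the unequal response was not called. Of the 10 enzymes 0 passed, against 0.0066% of all genes, 1 had an unadjusted p under 0.05 (Gpi), and voom called 0. Ldha stood at 2.14 (95% interval -0.94 to 5.22) and Pgk1 at -1.56 (SE 1.76), and intervals of this width at these depths leave sizeable differences undetectable. The comparisons on gels share libraries with one another, so their values are not independent.

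Shares of a step held by 1 isozyme do not depend on the scaling. Ldha, the form that favours lactate, took 5.39% to 8.35% of the summed TPM of Ldha, Ldhb and Ldhc in neonate primary libraries and 42.3% to 65.6% in the 6 neonate gel libraries, without overlap. In aged cells its share ran from 2.24% to 39.5% in primary libraries, from 52.1% to 87.1% on soft gel and from 0% to 66.5% on stiff gel. The neonate primary shares rested on 0.977 to 1.61 Ldha read pair equivalents per library. The share of 0%, in aged stiff gel replicate 2, was of a step total of 14.9 scaled TPM. Ldhb, the form that favours pyruvate, stood at 48.7 to 95.9 scaled TPM in neonate primary libraries and at 61.3 to 137 on neonate gels, and those groups overlapped. In aged libraries Ldhb was at 0 to 62.9. Hk1 took 67.2% to 93.9% of hexokinase transcripts in the 9 neonate libraries and 37.3% to 59.9% in aged primary libraries. Its share was 48.1% to 90.0% in aged stiff gel libraries, overlapping the neonate range, and 31.5% to 36.5% in aged soft gel libraries, where Hk2 was at 22.5, 29.5 and 0.595 and Hk3 at 13.7, 9.01 and 17.5. Hk2 ran from 26.2 to 48.0 in aged primary libraries and from 2.91 to 8.68 in neonate ones. Hk3, an isozyme of blood and immune cells, was at 0 in all 3 neonate primary libraries and at 12.8, 0 and 0 in the aged primary ones, where replicate 1 is a broad library. Eno1 held 73.4% to 100% of enolase transcripts in all libraries, with the neuronal form Eno2 at 0 to 40.8. Aldoa held 40.3% to 97.9% of aldolase transcripts, and Aldoc, the form of brain and astrocytes, ran from 0 to 67.1. Pfkm and Pfkp, the muscle and platelet forms of phosphofructokinase, ran from 1.06 to 58.9 and from 0 to 28.2.

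**Figure D4:**
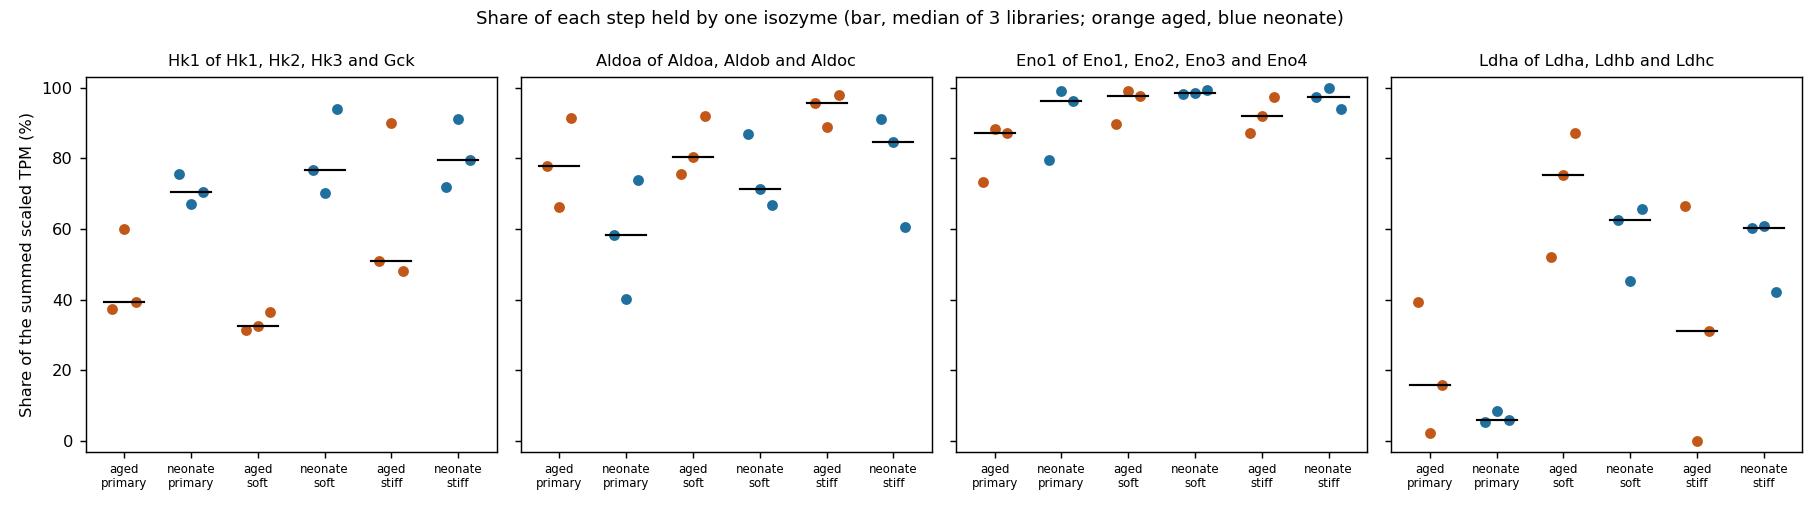
Points give the percentage of the summed scaled TPM of a step that 1 isozyme holds in each library, for hexokinase, aldolase, enolase and lactate dehydrogenase, with aged libraries in orange, neonate libraries in blue and bars at the median of 3. The Ldha share is 5.39% to 8.35% in neonate primary libraries, on 0.977 to 1.61 Ldha read pair equivalents each, and 42.3% or more in every neonate gel library. The Hk1 share is 36.5% or less in the aged soft gel libraries.

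Of the other 17 isozymes tested, limma called 0 in each of the 9 comparisons. Unadjusted p was under 0.05 for 0 to 4 of them per comparison, and voom called 1 in each of 3: Ldhb and Eno4 in aged versus neonate cells on soft and stiff gel, and Hk2 in aged gel culture. Their median in neonate gel culture was -0.13, against 1.21 for the 10 enzymes. Pgam1, a mutase of the step between Pgk1 and Eno1, was at 9.04, 10.3 and 35.2 scaled TPM in neonate primary libraries. On neonate gels Pgam1 was at 31.0 to 59.8, with overlap, a difference of 1.47 with an adjusted p of 0.726 by limma. Pgam2, the other mutase listed, had higher neonate group means. It was at 75.3, 76.5 and 88.4 in neonate primary libraries and at 33.6 to 160 on neonate gels, also with overlap. Among 11 genes of glucose and lactate transport limma called 1 higher and 1 lower in aged primary cells, and voom also called Slc16a8 in neonate gel culture. The fructose transporter Slc2a5, at 110.5, 177 and 204 in aged primary libraries against 2.57, 0 and 17.0 in the neonate ones, was 5.32 higher (adjusted p 0.0146), and it fell by 4.98 in aged gel culture (adjusted p 0.0136). The hexose transporter Slc2a6 was lower in aged primary cells, at 35.5, 25.5 and 44.3 against 218, 207 and 212, a difference of -2.60 (adjusted p 0.00557). The glucose transporters Slc2a1 and Slc2a3 ran from 0 to 67.2 and from 0 to 38.5, the lactate carriers Slc16a1 and Slc16a3 from 4.37 to 50.0 and from 0 to 38.6, and none of the 4 passed limma in any comparison.

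Among 16 regulators and branch enzymes Gpd1, which draws dihydroxyacetone phosphate towards glycerol lipids, was called higher in aged cells on both gels. Gpd1 stood at 22.8, 18.6 and 79.3 scaled TPM in aged and 0, 0 and 4.41 in neonate soft gel libraries, and at 32.6, 25.7 and 73.4 against 3.69, 3.92 and 0 on stiff gel. The differences were 4.25 and 3.83 on the log2 scale, with adjusted p of 0.0204 and 0.0301 by limma. Of 20 genes of the hypoxia response and of MYC, P4ha1, a collagen prolyl hydroxylase, was called higher in aged primary cells, at 34.3, 54.9 and 32.4 against 1.76, 4.96 and 0 (3.99, adjusted p 0.0305 by limma). Of this list limma called 0 between ages on either gel, with 1 of 20 at an unadjusted p under 0.05 on soft and 3 on stiff gel, and voom called Vegfa and Ndrg1 on both. Limma called 0 genes of the lists for pyruvate entry (14 genes), the pentose phosphate pathway (10), gluconeogenesis (6) and glycogen (7) in the 9 comparisons. Unadjusted p was under 0.05 for 0 to 3 genes of a list per comparison, and voom called Pygl, H6pd, Pygb and Pgd, each in 1 or 2 comparisons. Fbp1, the phosphatase that opposes phosphofructokinase, was at 0 in 14 of 18 libraries.

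Genes were ranked by how close their 6 group means of log2(scaled TPM + 1), each centred on its own mean, came to the average pattern of the 10 enzymes. That pattern ran from -0.99 in neonate primary and -0.57 in aged primary through -0.30 in aged stiff, 0.42 in neonate stiff and 0.48 in aged soft to 0.96 in neonate soft gel cells. The ranking held 2029 genes: those with a mean of at least 20 scaled TPM, and all 10 enzymes. Pfkl and Pgk1, at 6.88 and 10.8, were in it below that level. The closest were Cfl1, the actin-severing cofilin, Arhgap31, a GTPase-activating protein, Dctn1, a dynactin subunit, Stt3b, an oligosaccharyltransferase subunit, and Rpl36a, a ribosomal protein. Their root mean square distances were 0.22, 0.27, 0.28, 0.28 and 0.31 log2 units over 6 groups of 3 libraries. Cfl1 averaged 148 scaled TPM in aged primary, 161 in neonate primary, 313 in aged soft, 387 in neonate soft, 171.5 in aged stiff and 297 in neonate stiff libraries. The enzymes themselves lay 0.47 (Aldoa) to 1.19 (Pgk1) from their own average. By this distance Aldoa would rank 35 and Eno1 51 among the 2029 genes, and Pgk1 1210, each against an average that includes it. The 5 genes are the closest because they were picked by this distance.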

How the data were processed

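RNA of 18 libraries was sequenced as read pairs after a stranded total RNA kit for small inputs, per the labels' protocols. StringTie 1.3.2d with the rn6 annotation gave the deposited transcript files, per the file headers, and the other measured column the authors deposited holds attributes with coverage, FPKM and TPM of each transcript. The headers show no strand option, and the settings of the alignment are not given in the sources used here. Trimmomatic, HISAT2 and Bowtie are named without a role in the submitters' processing notes.

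TPM was summed per gene symbol, divided by median-of-ratios factors from the 1644 genes above 0 in all libraries, and taken as log2(scaled TPM + 1). A gene entered the tests if 3 or more libraries had it at a TPM of 1 or more, which 15144 of 17337 did. Limma 3.58.1 in R 4.3.3 was fitted with a trend to the 6 group means, with Benjamini-Hochberg adjustment over all genes and a threshold of 0.05. A fold on this scale understates the change of low genes. Gel culture is the mean of both gels. Read pair equivalents are coverage times length over 300 bases, and intervals are 95%. The fit was tested on simulated data.

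The enzymes, the other gene lists and the markers were chosen with earlier results of these data known. All 10 enzymes are named, as are a set choice of isozymes, transporters and Fbp1, other listed genes that were called, and the 5 genes closest in pattern. Alternatives changed the pseudocount, filter, scaling, weighting, groups fitted and libraries. Voom used read pair equivalents scaled by library totals alone, ribosomal RNA included and without the median-of-ratios factors. Its calls therefore differ from the main fit in scaling as well as in method. In 0 of 15 pairs of groups was every correlation between the deviations of same-numbered libraries over 0.1. Between the aged groups all were positive, from 0.016 to 0.233, and highest for replicate 1, the broad libraries. The rule therefore does not show that same-numbered aged libraries are unrelated.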

Additional observations from a re-analysis of the deposited data

Results flagged for a closer look

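The culture difference of Gpi differed between ages by the limma interaction term, at -3.95 on the log2 scale (SE 0.78), with an adjusted p of 0.0353 and a range of 0.0132 to 0.325 over the alternatives. In scaled TPM all 6 neonate gel libraries were above the 3 neonate primary ones, while aged soft gel libraries lay above and aged stiff gel libraries below the aged primary ones.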

How the results depend on the processing

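No enzyme that was called changed direction under any of the 29 alternatives. In aged versus neonate primary cells the number of enzymes called rose from 0 to 1, Gapdh, without scaling, when rescaled without ribosomal RNA, with quantile normalization, with voom and with array weights, and was 0 to 1 when each library was left out. On stiff gel the 1 call between ages became 0 with only the groups compared and 3 without the 3 broad libraries, and 1 to 3 with each library left out. In aged gel culture the 1 call became 0 without scaling and 0 with only the groups compared, and 0 to 2 with each library left out. In neonate gel culture the 1 call became 0 without scaling and with quantile normalization, 2 with voom and 4 with array weights, and 0 to 2 with each library left out. The 1 called interaction of age and culture became 0 with a pseudocount of 0.1, without scaling, when rescaled without ribosomal RNA, with quantile normalization and without the 3 broad libraries, and 0 to 1 with each library left out. The cause was not tested. With the replicate block the counts were 0, 0, 1, 1, 1, 0, 0, 1 and 0 over the 9 comparisons, as without it. Its adjusted p for Gpi were 0.00157 on stiff gel between ages, 0.00356 in neonate culture and 0.0455 for the interaction, and for Eno1 0.0102.

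The ratio of the summed level on gels to that in primary cells moved from 2.96 to 1.46 in neonate cells without scaling and from 2.41 to 3.11 in aged cells when rescaled without ribosomal RNA. Over all genes the calls moved more: 394 in primary cells ran from 160 to 1165 over the processing alternatives, 236 on soft gel from 59 to 991, 330 on stiff gel from 21 to 609, 168 in aged culture from 62 to 492, 15 in neonate culture from 10 to 200, 12 between gels in aged cells from 0 to 117, and 17 for the interaction of age and culture from 5 to 120. Between gels in neonate cells 0 ran from 0 to 6, and for the interaction of age and stiffness 1 ran from 0 to 6. The share of calls that were higher moved from 74.6% to 50.0% in primary cells (rescaled without ribosomal RNA), from 87.7% to 63.8% on soft gel (quantile), from 51.8% to 77.5% on stiff gel (no scaling), from 30.4% to 57.0% in aged culture (rescaled), from 40.0% to 0% in neonate culture (no scaling) and from 29.4% to 64.3% for the interaction of age and culture (no scaling). Depth limits Pfkl, Pgk1 and Tpi1 most, with 0 read pairs in some libraries.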
